A study of Homo sapiens with 66 samples.

Results

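ADAR and ADARB1 are the genes of the catalytically active adenosine deaminases that act on RNA. These 2 of the 57820 genes in each of the gene count tables were picked by their Ensembl identifiers, ENSG00000160710 and ENSG00000197381, and their introns, 18 for each gene among the 197626 counted introns, were picked by position on GRCh37. The data come from THP-1, a human monocytic leukemia cell line, here transgenic for Cas9 and nucleofected with a pair of guide RNAs (gRNAs).

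In study 1 a STING-deficient clone received the nontarget gRNA NC1 in both slots (CTRL), an ADAR gRNA with NC1 (ADAR), an hnRNPC gRNA with NC1 (hnRNPC), both targeting gRNAs (ADAR+hnRNPC), or a gRNA against GFP with NC1 (GFP). Cells were kept in medium and harvested 3, 4, or 5 days after nucleofection, and a further CTRL group received IFN-alpha and was harvested on day 4. Each of these 16 groups had 3 libraries, 48 in all. Study 2 used a wild-type clone and different gRNAs for ADAR and hnRNPC, and gave 9 groups of 2 libraries on day 4, 18 in all. CTRL, ADAR, hnRNPC, and ADAR+hnRNPC cells gave total RNA and digitonin-soluble (cytosol-enriched) RNA. The hnRNPC cells also gave digitonin-insoluble RNA, labeled as nuclear, which held mitochondrial transcripts too. Each study rests on 1 Cas9 clone. No cloning step after the nucleofection is described, so cells that kept an intact allele may contribute to the targeted libraries. The labels number the replicates, and the legends of the study describe them as independent experiments. The p values measure the spread between these libraries.

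ADAR proteins bind double-stranded RNA and convert adenosine to inosine, which is read as guanosine by sequencing. The ADAR gene makes a constitutive, mostly nuclear protein, p110, and a longer protein, p150, whose transcript starts at an interferon-inducible promoter and which also works in the cytoplasm. ADARB1 encodes ADAR2, a largely nuclear enzyme best known for recoding glutamate receptor transcripts in neurons. Editing by ADAR keeps cellular double-stranded RNA from being taken for viral RNA by MDA5, and HNRNPC, the other targeted gene, encodes an RNA-binding protein that keeps cryptic exons in introns from being spliced in.

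ADAR lies on the minus strand of chromosome 1, chr1:154554171-154600489, and ADARB1 on the plus strand of chromosome 21, chr21:46493768-46646475 (GRCh37). The p150 transcript starts 19782 bases inside the gene from the p110 start. The 30 bases upstream of the p150 start, chr1:154580663-154580692 on the minus strand, are shown because ADAR responded to interferon in these cells. The capitals mark the core letters of an interferon-stimulated response element, GAAANNGAAA.
ADAR p150 start, upstream bases: aaggctttccgaggaaacGAAAGCGAAAtt
The core begins 12 bases before the start. It was searched on both strands (TTTCNNTTTC on the other) from 250 bases before to 50 after a start. It was not found around the p110 start, nor at the 3 ADAR or 4 ADARB1 starts that RefSeq lists on GRCh38.p14, and 3.57% of the 35116 RefSeq promoters held it. The windows of the 3 RefSeq starts of ADAR thus do not cover the match printed above, and the share was taken without it. A match of letters is a description and not a binding site.

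The ADAR gRNA of study 1 is shown with the adjacent PAM of the target site in capitals, because its place in the gene bears on what the gene counts can show.
ADAR gRNA of study 1 with PAM: tatatctcgggccttggtaAGG
Its 19 bases match the genome at 1 place, chr1:154574128-154574146 on the plus strand, opposite to the gene. The cut falls in exon 2 of 15 of the main transcript, in codon 325 of 1226 of the p150 coding sequence, 29 codons past the first codon of p110. The target is therefore shared by both proteins. Gene counts span all exons, so they report how much ADAR RNA remained and not whether it was intact.

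Gene counts summed to between 95107690 and 152829008 per library in study 1 and to between 49666958 and 73873756 in study 2. The markers of the myeloid lineage fixed for this line were present, except that CD14 was near 0, and markers of T and epithelial cells, fibroblasts, erythrocytes, and hepatocytes (CD3E, EPCAM, COL1A1, HBB, and ALB) reached at most 1.42 CPM (counts scaled to a common library size). HNRNPC lay between 294 and 417 CPM in the libraries of study 1 that received its gRNA and between 725 and 869 CPM in all others. In study 2 the digitonin-soluble libraries were depleted of the mitochondrial transcripts MT-CO1 and MT-ND4 (summed 25.7 to 32.6 CPM in CTRL cells, against 2021 to 3135 CPM in total RNA), whereas the nuclear RNAs MALAT1 and NEAT1 were reduced less (825 to 1024 against 1317 to 3060 CPM). In hnRNPC cells the mitochondrial sum was 1779 to 2629 CPM in digitonin-insoluble and 1638 to 2035 CPM in total RNA, with overlap. The nuclear sum was 2345 to 2587 against 1021 to 1648 CPM.

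ADAR was an abundant transcript whose level barely moved with any single gRNA in study 1 and rose about as much in ADAR+hnRNPC cells of day 5 as after IFN-alpha. CPM values are scaled by trimmed mean of M values (TMM). In CTRL cells ADAR stood at 417, 418, and 436 CPM on day 3, at 398, 416, and 397 CPM on day 4, and at 364, 412, and 406 CPM on day 5. In ADAR+hnRNPC cells it stood at 355, 344, and 367 CPM on day 3, at 420, 461, and 485 CPM on day 4, and at 1165, 1290, and 1509 CPM on day 5. The day 3 libraries thus lay below every CTRL library of that day, and the day 4 libraries lay above every CTRL library of theirs. Libraries of CTRL cells given IFN-alpha had 1053, 1281, and 1373 CPM. These 6 libraries, ADAR+hnRNPC of day 5 and IFN-alpha, formed a separate upper set, since the other 42 libraries ranged from 344 to 485 CPM with a median of 398.

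**Figure D1:**
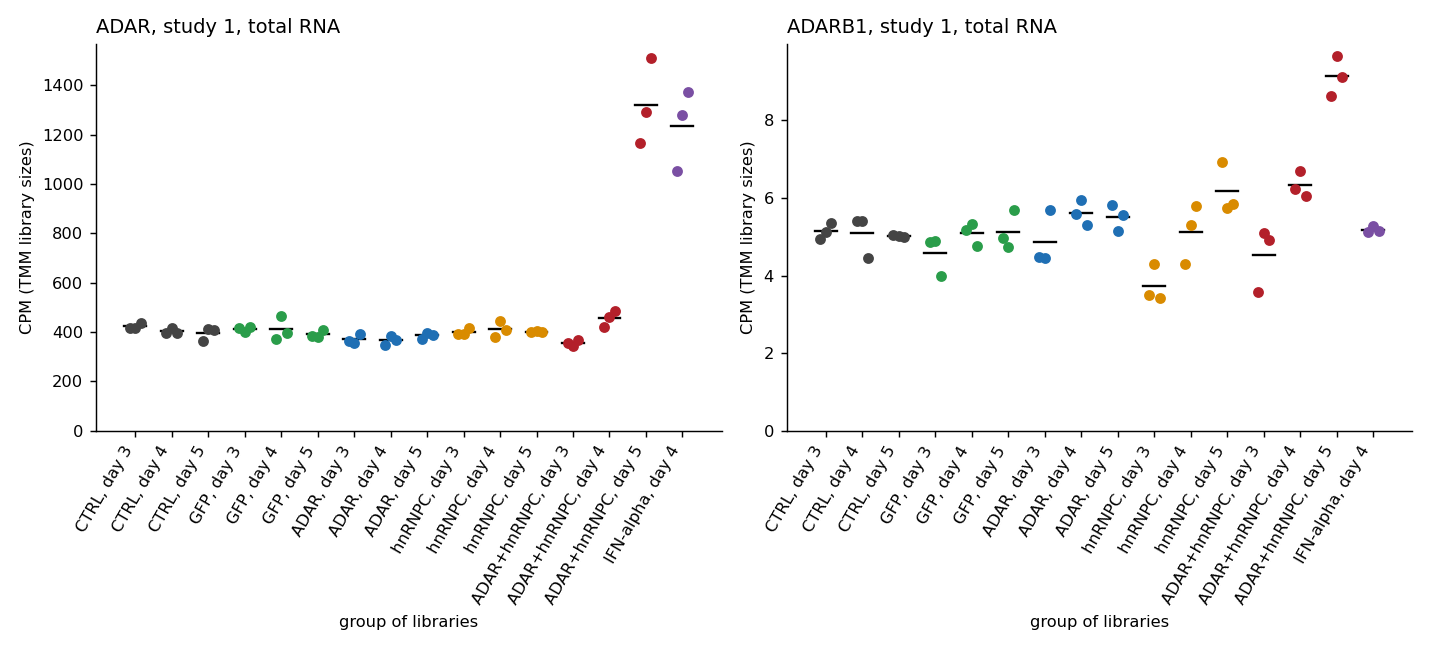
ADAR (left) and ADARB1 (right) in each library of study 1, in TMM-scaled CPM, by gRNA group and day; points are libraries and bars are group means. ADAR stood at 1053 to 1509 CPM in the 3 ADAR+hnRNPC libraries of day 5 and the 3 IFN-alpha libraries, whereas ADARB1 was highest in ADAR+hnRNPC cells of day 5 (8.63 to 9.65 CPM) and lay at the CTRL level after IFN-alpha.

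Tested by the quasi-likelihood method of edgeR, with p adjusted after Benjamini and Hochberg over the 13187 genes that passed the filter, ADAR of ADAR+hnRNPC cells on day 5 was 3.35-fold above CTRL (log2 fold change 1.75 ± 0.08 SE, n = 3 per group, adjusted p = 1.37e-20). That test called 34.5% of all genes higher in this comparison, so the call is not particular to ADAR. The rise against CTRL was 0.17 on day 4 (adjusted p = 0.0631, not passed, edgeR; it passed with DESeq2, at 0.21 and an adjusted p of 0.0138) and a fall of 0.25 on day 3 (adjusted p = 0.0151, passed, edgeR; 16.7% of genes were called lower). The day 3 call was lost without CTRL replicate 3 (-0.23, adjusted p = 0.0582) or without ADAR+hnRNPC replicate 2 (-0.23, adjusted p = 0.0641). Between day 3 and day 5 the difference from CTRL grew by 2.00 on the log2 scale (95% interval 1.77 to 2.23, adjusted p = 2.54e-17, edgeR), a contrast added after the data were seen, in which 26.5% of genes were called higher. In bulk RNA, a change in the share of cells that express a gene and a change in its RNA per cell cannot be told apart.

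IFN-alpha raised ADAR 3.06-fold over CTRL of day 4 (log2 fold change 1.61, 95% interval 1.45 to 1.78, adjusted p = 7.5e-19, edgeR), in a comparison in which 11.1% of genes were called higher. ADAR+hnRNPC cells of day 5 and IFN-alpha-treated cells differed by 0.10 (95% interval -0.07 to 0.26, adjusted p = 0.275, edgeR). Day and gRNAs both differ between these groups. The difference passed the test without IFN-alpha replicate 3 (0.19, adjusted p = 0.042, edgeR).

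Neither gRNA alone moved ADAR past the test on any day. ADAR-targeted cells had 364, 355, and 392 CPM on day 3, 349, 385, and 369 CPM on day 4, and 373, 396, and 390 CPM on day 5. On days 3 and 4 these were below every CTRL library of the day, and on day 5 the groups overlapped. The log2 fold change against CTRL was -0.19 (95% interval -0.36 to -0.03) on day 3, -0.13 (-0.30 to 0.03) on day 4, and -0.03 (-0.19 to 0.13) on day 5, with adjusted p of 0.997, 0.506, and 0.853 (edgeR). The share of all genes called in either direction was 0, 0.645, and 9.23% on these days. In hnRNPC-targeted cells ADAR ranged from 381 to 444 CPM over the 9 libraries of the 3 days, and its log2 fold change was -0.08, 0.03, and 0.03 (adjusted p 0.436, 0.811, and 0.775, edgeR). GFP-targeted cells, a second control, ranged from 372 to 466 CPM, with no call (0.0303, 0.0227, and 7.3% of genes were called on days 3, 4, and 5). In CTRL cells themselves ADAR differed from day 3 by -0.07 on day 4 (adjusted p = 0.679) and -0.10 on day 5 (adjusted p = 0.351, edgeR), with 4.65 and 25.7% of genes called.

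The rise on day 5 exceeded the sum of the single effects. Against ADAR-targeted cells, ADAR+hnRNPC cells had an ADAR log2 fold change of -0.06 on day 3, 0.31 on day 4 (adjusted p = 0.00134), and 1.77 on day 5 (adjusted p = 1.28e-20, edgeR), where 24.4 and 32.8% of genes were called higher on days 4 and 5. Against hnRNPC-targeted cells the values were -0.17 (adjusted p = 0.178), 0.15 (adjusted p = 0.169), and 1.72 (adjusted p = 4.07e-20, edgeR), with 29.3% of genes called higher on day 5. The interaction term of the 2-by-2 model of day 5 was 1.73 ± 0.12 SE (adjusted p = 4.49e-08, edgeR), where 23.2% of genes had a positive call, and it was 0.29 on day 4 (adjusted p = 0.142) and 0.03 on day 3 (adjusted p = 0.914). These comparisons share control libraries.

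Ordered by mean, the 16 groups ran from ADAR+hnRNPC on day 3 (355 ± 11.9 CPM, SD, n = 3) to ADAR+hnRNPC on day 5 (1322 ± 174 CPM). Of the 15 neighbouring pairs in that order, 14 overlapped in their libraries, and the single step lay between ADAR+hnRNPC on day 4 (455 ± 33.1 CPM) and IFN-alpha (1236 ± 165 CPM).

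ADARB1 was expressed at a low level and did not respond to IFN-alpha, but in cells with an hnRNPC gRNA it rose with time. Its counts ran from 427 to 1208 reads per library in study 1. CTRL libraries had 4.94, 5.13, and 5.36 CPM on day 3, 5.40, 5.39, and 4.46 CPM on day 4, and 5.04, 5.01, and 5.00 CPM on day 5. IFN-alpha-treated libraries had 5.11, 5.28, and 5.15 CPM, within the range of their CTRL (log2 fold change 0.03, 95% interval -0.21 to 0.27, adjusted p = 0.906, edgeR).

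In hnRNPC-targeted cells ADARB1 stood at 3.49, 4.30, and 3.41 CPM on day 3, at 4.30, 5.29, and 5.79 CPM on day 4, and at 6.93, 5.74, and 5.84 CPM on day 5. Each day 3 library was below, and each day 5 library above, all CTRL libraries of the same day. The log2 fold change went from -0.46 (adjusted p = 0.00242) on day 3, where 25.4% of genes were called lower, through 0.01 (adjusted p = 0.936; 51.4% of genes called) to 0.30 (adjusted p = 0.0271, edgeR) on day 5, where 29.5% were called higher. The change between day 3 and day 5, 0.76 (95% interval 0.42 to 1.10, adjusted p = 0.000351, edgeR), passed as well, with 24.1% of genes called higher. The day 5 call was lost without CTRL replicate 2 (0.30, adjusted p = 0.0575), CTRL replicate 3 (0.30, adjusted p = 0.0572), or hnRNPC replicate 1 (0.21, adjusted p = 0.171). Set against GFP-targeted in place of CTRL cells, the change was -0.30 on day 3 (adjusted p = 0.0503) and 0.27 on day 5 (adjusted p = 0.0532, edgeR), both just outside the threshold.

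ADAR+hnRNPC cells showed the larger rise. ADARB1 stood there at 3.59, 5.09, and 4.91 CPM on day 3, at 6.22, 6.69, and 6.05 CPM on day 4, and at 8.63, 9.65, and 9.11 CPM on day 5. The day 5 libraries were the highest of the 48. Against CTRL the log2 fold change was -0.18 (adjusted p = 0.268) on day 3, 0.31 (adjusted p = 0.0234) on day 4, where 25.5% of genes were called higher, and 0.86 (95% interval 0.62 to 1.11, adjusted p = 4.02e-08, edgeR) on day 5. The day 4 call was lost without CTRL replicate 3 (0.23, adjusted p = 0.148) or ADAR+hnRNPC replicate 2 (0.27, adjusted p = 0.0849), whereas the day 5 call passed whichever library was left out. The day 4 call was also lost with no filter on low counts (0.31, adjusted p = 0.114, edgeR), as were the hnRNPC call of day 5 (0.30, adjusted p = 0.124) and the interaction given next (0.41, adjusted p = 0.0961).

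On day 5 ADARB1 of ADAR+hnRNPC cells was also above that of ADAR-targeted cells (log2 fold change 0.73, adjusted p = 1.3e-06), of hnRNPC-targeted cells (0.57, adjusted p = 8.15e-05), and of IFN-alpha-treated cells on day 4 (0.82, adjusted p = 1.33e-07, edgeR; 33% of genes called higher). The interaction term was 0.41 ± 0.14 SE (adjusted p = 0.0229, edgeR), and its call was lost without hnRNPC replicate 2 (0.37, adjusted p = 0.0512), ADAR replicate 2 (0.37, adjusted p = 0.0583), or ADAR+hnRNPC replicate 2 (0.38, adjusted p = 0.0578). The ADAR gRNA alone gave no ADARB1 call (-0.08 on day 3 and 0.14 on both later days, log2 scale). Of 15 neighbouring pairs in the order of ADARB1 group means, 14 overlapped, and the single step was below ADAR+hnRNPC on day 5.

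In ADAR+hnRNPC cells of day 5 the summed level of 10 myeloid markers was 1775 to 1974 CPM against 3281 to 3667 CPM in CTRL cells, and that of GAPDH, ACTB, and RPLP0 was 5606 to 6525 against 9559 to 10100 CPM. CTSG, a granule protease, made up most of the myeloid sum, with 954.3 to 1110 CPM against 2521 to 2852 CPM. Of the 9 myeloid markers tested, 3 were higher and 4 lower (median log2 fold change -0.08, against -0.04 over all genes). Of all genes, 34.5% were called higher and 39% lower there, so these counts are not particular to the markers. In hnRNPC-targeted cells of day 5 the counts were also 3 and 4 (median -0.15), with 29.5% of all genes called higher. The sums there were 2238 to 2657 CPM and 8046 to 9894 CPM. In total RNA of ADAR+hnRNPC cells in study 2 they were 908.2 to 981.5 CPM against 1120 to 1356 CPM in CTRL cells and 7502 to 7614 against 10870 to 12880 CPM. Their part in the shares of ADAR and ADARB1 reads was not tested. After IFN-alpha these sums were 3618 to 4278 CPM and 9441 to 10390 CPM, overlapping those of CTRL cells of day 4 (3287 to 3710 and 10030 to 10930 CPM).

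Per kilobase of exon, ADAR exceeded ADARB1 by a median of 77.4 times over the 48 libraries of study 1 (range 55.6 to 255.5) and of 91.2 times over the 18 libraries of study 2 (44.2 to 140). The exons of the basic transcript set span 7.814 kb for ADAR and 7.493 kb for ADARB1. In CPM per kb, ADAR ran from 43.96 to 193 and ADARB1 from 0.455 to 1.29 in study 1. The ratio was highest after IFN-alpha, at 197, 233, and 255.5, and stood at 128 to 159 in ADAR+hnRNPC cells of day 5, where both genes were up.

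In study 2 the ADAR gRNA was accompanied by less ADAR RNA. ADAR had 858 and 869 CPM in total RNA of CTRL cells, 564 and 448 CPM in ADAR-targeted cells, 937 and 864 CPM in hnRNPC-targeted cells, and 883 and 694 CPM in ADAR+hnRNPC cells. In cytosolic RNA the values were 1166 and 1162 CPM in CTRL, 603 and 515 CPM in ADAR, 1278 and 1239 CPM in hnRNPC, and 850 and 674 CPM in ADAR+hnRNPC cells. The 4 libraries of ADAR-targeted cells lay below all others in both compartments. The clone, the gRNA, and the series of libraries all differ between the studies, so their parts in any difference from study 1, which was not tested, cannot be told apart.

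**Figure D2:**
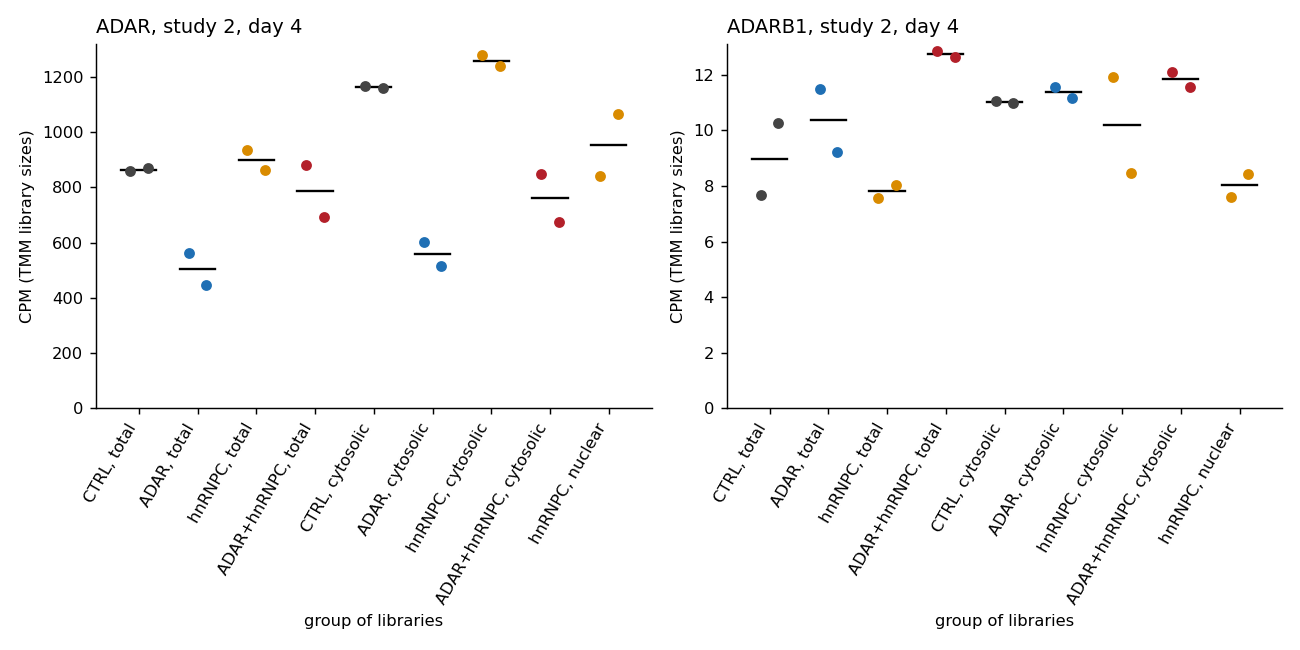
ADAR (left) and ADARB1 (right) in each library of study 2, in TMM-scaled CPM, by gRNA group and compartment (digitonin-insoluble is shown as nuclear); points are libraries and bars are group means. The 4 libraries with the ADAR gRNA alone (448 to 603 CPM) lie below all 10 libraries without an ADAR gRNA (840 to 1278 CPM), while ADARB1 spans 7.58 to 12.8 CPM.

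With the ADAR gRNA the log2 fold change of ADAR against CTRL was -0.77 in total RNA (95% interval -1.11 to -0.44, n = 2 per group, adjusted p = 0.00468) and -1.06 in cytosolic RNA (-1.39 to -0.72, adjusted p = 0.00013, edgeR with adjustment over 13637 genes). Only 3.88 and 6.61% of genes were called lower there. The call in total RNA was lost without ADAR replicate 2 (-0.62, adjusted p = 0.0755), where the remaining library is assumed to vary like the other groups. The hnRNPC gRNA alone gave 0.06 in total RNA (adjusted p = 0.855) and 0.11 in cytosolic RNA (adjusted p = 0.803, edgeR), with 5.11 and 2.6% of genes called.

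In ADAR+hnRNPC cells of study 2 the ADAR level was closer to CTRL than with the ADAR gRNA alone. The log2 fold change against CTRL was -0.13 in total RNA (adjusted p = 0.538) and -0.61 in cytosolic RNA (adjusted p = 0.00562, edgeR), where 20.5% of genes were called lower. Against ADAR-targeted cells it was 0.64 in total RNA (95% interval 0.31 to 0.97, adjusted p = 0.008), in a comparison with 7.36% of genes called higher, and 0.45 in cytosolic RNA (0.11 to 0.78, adjusted p = 0.174, edgeR; 0.968% of genes called). The cytosolic call against CTRL was lost without ADAR+hnRNPC replicate 2 (-0.45, adjusted p = 0.0881), and the call in total RNA against ADAR-targeted cells was lost without ADAR replicate 2 (0.48, adjusted p = 0.108) or ADAR+hnRNPC replicate 1 (0.46, adjusted p = 0.0821). The interaction terms were 0.68 in total RNA (adjusted p = 0.0702) and 0.37 in cytosolic RNA (adjusted p = 0.948, edgeR), and neither passed, with 0 and 0.00755% of genes called.

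ADARB1 in study 2 had 7.69 and 10.3 CPM in total RNA of CTRL cells, 11.5 and 9.24 CPM in ADAR, 7.58 and 8.03 CPM in hnRNPC, and 12.8 and 12.7 CPM in ADAR+hnRNPC cells. The ADAR+hnRNPC libraries were the highest of the study. The log2 fold change against CTRL, 0.51 (95% interval 0.15 to 0.86, adjusted p = 0.0287, edgeR), was the only ADARB1 call among the gRNA comparisons, with 12.4% of genes called higher. It was lost without CTRL replicate 1 (0.31, adjusted p = 0.241) or without either ADAR+hnRNPC library (0.50, adjusted p = 0.107, and 0.51, adjusted p = 0.124). In cytosolic RNA all 4 groups lay between 8.46 and 12.1 CPM, and the log2 fold change of ADAR+hnRNPC cells was 0.10 (adjusted p = 0.647, edgeR).

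Averaged over the 4 gRNA groups, ADAR was higher in cytosolic than in total RNA by 0.25 on the log2 scale (95% interval 0.09 to 0.42, adjusted p = 0.00788, edgeR), where 49.3% of genes were called higher. The call was lost with DESeq2 (0.14, adjusted p = 0.0959) and without ADAR+hnRNPC total replicate 2 (0.20, adjusted p = 0.0528, edgeR). The ADARB1 difference was 0.18 (adjusted p = 0.0654, edgeR). These are shares of the RNA in each fraction and not amounts per cell. In ADAR+hnRNPC cells the ADAR means were 762 CPM in cytosolic and 788 CPM in total RNA, with overlapping libraries, whereas in CTRL cells they were 1164 and 864 CPM without overlap. In hnRNPC cells ADAR had 1278 and 1239 CPM in cytosolic RNA and 840 and 1066 CPM in digitonin-insoluble RNA. That difference of 0.40 passed (adjusted p = 0.0306, edgeR; 45.2% of genes called higher) and was lost with DESeq2 (0.16, adjusted p = 0.384), without either cytosolic library (0.38, adjusted p = 0.0961, and 0.42, adjusted p = 0.0643), or without digitonin-insoluble replicate 1 (0.23, adjusted p = 0.296). The corresponding ADARB1 difference was 0.34 (adjusted p = 0.0803, edgeR), and it passed without cytosolic replicate 2 (0.57, adjusted p = 0.0109). In the order of group means, 3 of the 8 neighbouring pairs did not overlap for ADAR, and the same number for ADARB1.

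The ADAR introns upstream and downstream of the p150 start did not move alike in their counts. Numbered along the gene as in the count table, introns 1 to 4 lie upstream of the p150 start and can be transcribed from the p110 promoter, whereas introns 5 to 18 lie downstream of both. RefSeq lists a further ADAR start inside the gene (window chr1:154608748-154609047, GRCh38.p14). It was not placed among these introns, and whether its reads enter the upstream sums was not tested. The introns tested were 2, 5, 6, 10, 15, and 17 of ADAR and 10 of ADARB1, and the other 29 fell under the filter of an average log2 CPM of 1. After IFN-alpha the 5 tested downstream introns rose, and intron 2 did not pass the test.

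Intron 2 (chr1:154585191-154600330) held 1.68 to 2.69 CPM in CTRL cells of day 4 and 1.74 to 2.88 CPM after IFN-alpha, with a log2 fold change of -0.03 (SE 0.23, adjusted p = 0.997, edgeR over 21798 introns). Intron 5 (chr1:154575103-154580467), the first one downstream of the p150 start, held 2.56 to 3.63 CPM in CTRL cells and 9.07 to 11.2 CPM after IFN-alpha (log2 fold change 1.77, adjusted p = 1.22e-07, edgeR). Introns 6, 10, 15, and 17 rose by 1.52, 1.55, 1.52, and 1.53. In all, 5 of the 6 ADAR introns were called higher, against 1.49% of all introns, and the ADARB1 intron was not (-0.03, adjusted p = 0.997).

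**Figure D3:**
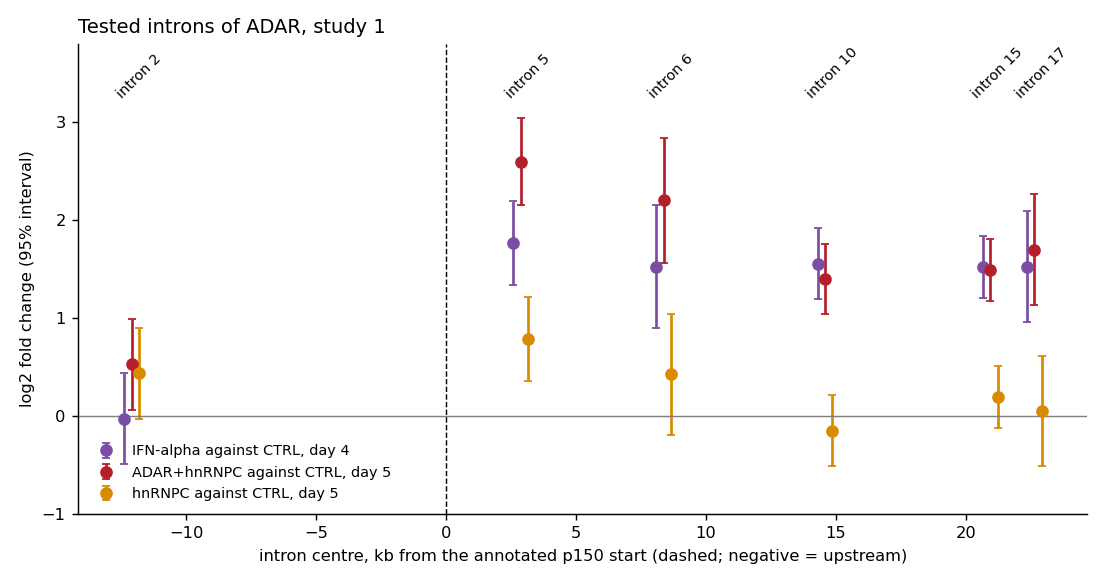
Log2 fold change of the 6 tested ADAR introns against CTRL of the same day, for IFN-alpha on day 4 and ADAR+hnRNPC and hnRNPC cells on day 5, by the distance of the intron's centre from the p150 start in kb (dashed line, negative is upstream); error bars are 95% intervals of the edgeR fit. Intron 2, upstream of the p150 start, lies at -0.03 after IFN-alpha and 0.53 in ADAR+hnRNPC cells of day 5, and the 5 downstream introns lie between 1.40 and 2.60 in both, while in hnRNPC cells intron 5 is highest, at 0.78.

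The same 5 introns were called higher in ADAR+hnRNPC cells of day 5, against 14.3% of all introns. Intron 5 stood at 13.3 to 18.5 CPM against 2.02 to 3.46 CPM in CTRL cells, a log2 fold change of 2.60 ± 0.22 SE (adjusted p = 2.11e-12, edgeR), and intron 6 rose by 2.20 (adjusted p = 3.54e-07). Introns 10, 15, and 17 rose by 1.40, 1.49, and 1.70. Intron 2 had 2.91 to 3.40 CPM against 1.84 to 2.60 CPM, without overlap, and a log2 fold change of 0.53 that did not pass (adjusted p = 0.0519, edgeR).

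Intron 5 was the 1 ADAR intron called in ADAR+hnRNPC cells of day 4 against CTRL (log2 fold change 1.01, adjusted p = 0.000409, edgeR; libraries 5.24 to 6.92 CPM; 10.5% of introns were called higher). That count was 2 without ADAR+hnRNPC replicate 2 or 3, 3 without CTRL replicate 1, and 4 (of 16 tested) when scaled to intron totals. Against ADAR-targeted cells of day 4 the tested ADAR introns differed by 0.47 to 1.16, and intron 17 did not pass. The ADAR gene itself rose by 0.31 in that comparison, and the share of all introns called there is not given here. Intron 5 was also the 1 ADAR intron called in hnRNPC-targeted cells of day 5 (0.78, adjusted p = 0.00401; libraries 4.16 to 4.61 CPM), where 13.9% of all introns were called higher and the ADAR gene counts did not differ past the test. Its level in ADAR+hnRNPC cells of day 5 was also above that after IFN-alpha, by 0.61 (adjusted p = 0.0136, edgeR; 17.9% of introns called higher), while introns 2, 6, 10, 15, and 17 differed by 0.51, 0.69, -0.05, -0.11, and 0.39 in that comparison and did not pass (adjusted p from 0.0547 to 0.832). Whether intron 5 changed more than the other introns was not tested. The ADAR gRNA alone gave no intron call on any day. Its cut lies in the exon between introns 5 and 6.

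Summed over introns 5 to 18, ADAR intron reads ran from 19.4 to 28.6 CPM in CTRL libraries of the 3 days, from 61.5 to 76.5 CPM after IFN-alpha, and from 73.7 to 102 CPM in ADAR+hnRNPC cells of day 5. Summed over introns 1 to 4, they ran from 1.88 to 3.46 CPM in CTRL cells, from 2.18 to 3.59 CPM after IFN-alpha, and from 4.39 to 5.66 CPM in ADAR+hnRNPC cells of day 5. Intron 4, which fell under the filter, held 28 to 337 reads per library, and its part in the upstream sum was not tested. The downstream sum was 6.40 to 10.6 times the upstream sum in CTRL libraries. It was 21.3, 22.0, and 30.6 times the upstream sum after IFN-alpha and 16.8, 14.8, and 17.96 times in ADAR+hnRNPC cells of day 5, above every CTRL library. This ratio was chosen after the data were seen, and with 3 libraries against 3 an exact two-sided permutation test cannot go below p = 0.1, the value it gave in both comparisons (adjusted p = 0.26 over 13 comparisons).

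**Figure D4:**
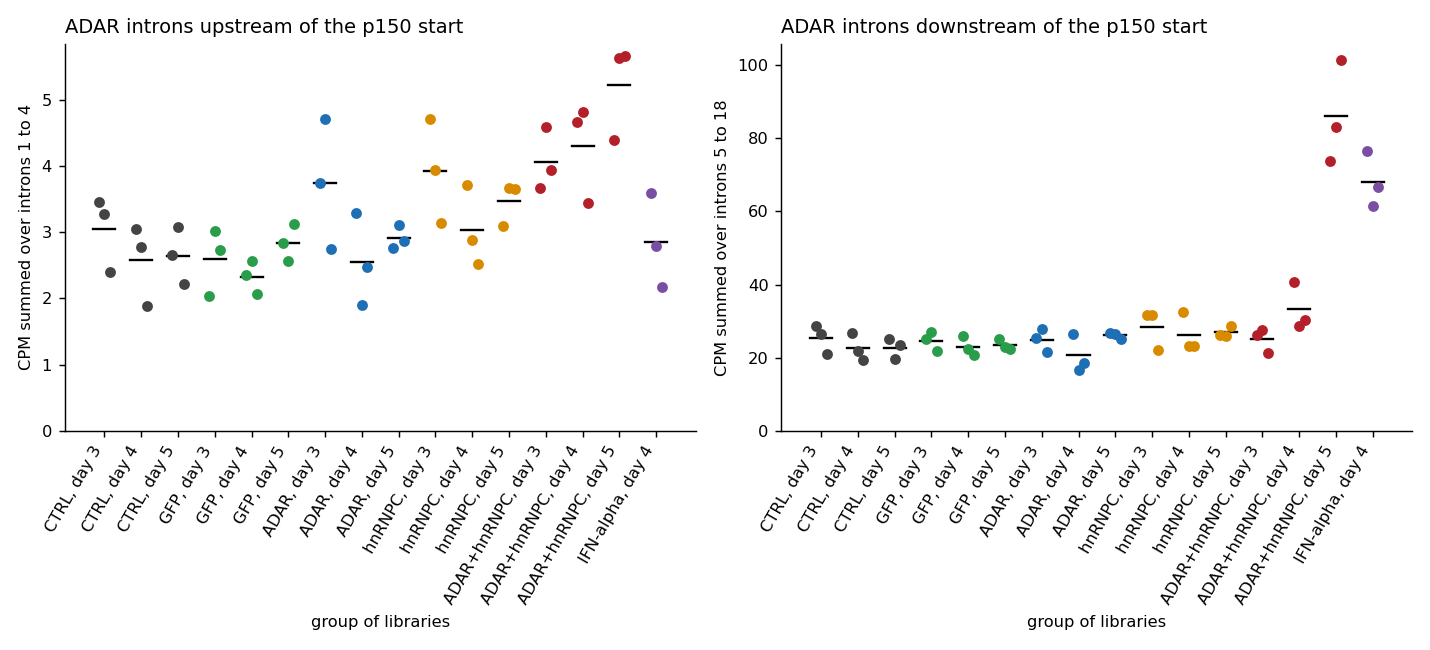
ADAR intron reads of study 1 in CPM, summed over introns 1 to 4 upstream of the p150 start (left) and over introns 5 to 18 downstream of it (right), by group; points are libraries and bars are group means, and the axes differ in scale. The IFN-alpha libraries lie at 2.18 to 3.59 CPM on the left, among the CTRL libraries, and at 61.5 to 76.5 CPM on the right, and the ADAR+hnRNPC libraries of day 5 are raised in both.

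Intron 10 of ADARB1 (chr21:46548489-46591524) had 1.90 to 2.73 CPM in CTRL cells of day 5 and 2.99 to 3.18 CPM in ADAR+hnRNPC cells (log2 fold change 0.46, adjusted p = 0.00704, edgeR). On day 4 the change was 0.48 (adjusted p = 0.0144, edgeR), in a comparison in which the gene itself changed by 0.31. Both calls were lost when 1 library was left out, CTRL replicate 3 in either case and ADAR+hnRNPC replicate 1 on day 4. In hnRNPC-targeted cells of day 5 the change was 0.34 (adjusted p = 0.0651, edgeR).

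The log2 ratio of summed intron counts to gene counts, which does not depend on library size, asked whether intron reads rose more than the gene. For ADAR it was -3.96 ± 0.22 (SD, n = 9) in CTRL cells over the 3 days, -3.73 ± 0.27 in hnRNPC cells, and -3.70 ± 0.24 in ADAR+hnRNPC cells. With libraries not paired by replicate number, none of the 6 comparisons passed after adjustment (smallest p = 0.0305, adjusted p = 0.183, exact permutation test within days, two-sided). For ADARB1 it was -0.12 ± 0.16 in CTRL and 0.18 ± 0.19 in hnRNPC cells. That difference of 0.30 passed (exact permutation p = 0.00425, adjusted p = 0.0255 over 6 comparisons), with all hnRNPC libraries above all CTRL libraries on 1 of 3 days, and it was lost when any 1 replicate number was left out on all days (adjusted p from 0.0556 to 0.361). Pairing by replicate number changed these calls. With the signs of same-numbered pairs flipped, ADAR passed in hnRNPC (0.23) and ADAR+hnRNPC cells (0.27; adjusted p = 0.0469 for each). ADARB1 in hnRNPC cells did not pass in that sign-flip test (adjusted p = 0.0703). ADARB1 introns of ADAR+hnRNPC cells differed from CTRL by 0.05 (exact permutation p = 0.55, adjusted p = 0.991). Both the permutation and the sign-flip test take the libraries of the 3 days as independent, which the labels do not settle.

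The reaction product of these enzymes, A-to-I editing, was read at sites called by the study, as edited reads over all reads summed over the 42782 of 475962 sites with at least 10 reads in each library of study 1. By the study's methods a site was admitted only if it was edited in a sample with wild-type ADAR, so the choice of sites used the libraries compared here, and its part in the differences from ADAR-targeted cells was not tested. In ADAR-targeted cells the pooled percent was 1.44 to 1.66%, against 3.76 to 4.28% in CTRL libraries, while ADAR RNA was within 0.19 of CTRL on the log2 scale on each day. The mean difference of 2.40 percentage points over the 3 days (1.53 ± 0.058% against 3.93 ± 0.17%, SD, n = 9 each) had p = 0.00025, the smallest the exact two-sided permutation test within days can give (adjusted p = 0.0005 over 6 comparisons), and all ADAR libraries were below all CTRL libraries on each day. Here and in the editing comparisons below, the test takes the libraries of a group as independent. Libraries of different days may come from the same nucleofection experiments, in which case such a p value is too small. Editing at these sites reports on ADAR and ADARB1 together.

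Editing in ADAR+hnRNPC cells stood at 1.75, 1.76, and 1.93% on day 3, at 1.74, 1.83, and 1.83% on day 4, and at 2.42, 2.56, and 2.66% on day 5. It was thus above ADAR-targeted cells in each library of each day (mean difference 0.52 percentage points, exact permutation p = 0.00025, adjusted p = 0.0005) and below CTRL (difference of -1.88 percentage points, exact permutation p = 0.00025, adjusted p = 0.0005). The highest values came on the day on which ADAR and ADARB1 RNA were highest. IFN-alpha-treated libraries had 7.09, 8.08, and 9.08%, all above their CTRL (3.81, 4.00, and 3.98%). The difference of 4.15 percentage points had p = 0.1, the smallest the exact test of 3 against 3 allows (adjusted p = 0.12). In hnRNPC-targeted cells editing was 4.28 ± 0.21%, or 0.35 percentage points above CTRL (exact permutation p = 0.00375, adjusted p = 0.00563; without replicate 2 of each day 0.337, adjusted p = 0.0833), and GFP-targeted cells differed by -0.088 percentage points (exact permutation p = 0.274, adjusted p = 0.274).

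In study 2, over 66459 of 318767 sites, ADAR-targeted cells had 2.16 and 1.99% in total and 2.11 and 2.03% in cytosolic RNA, and CTRL cells had 7.09 and 6.69% and 7.53 and 7.56%. ADAR+hnRNPC cells had 2.20 and 1.98% and 2.25 and 2.04%. Both groups were below every CTRL library in both compartments, with p = 0.0556, the smallest that the exact permutation within compartments can give, so this design cannot pass 0.05. ADAR+hnRNPC and ADAR cells differed by 0.050 percentage points (exact permutation p = 0.611, adjusted p = 0.611). The hnRNPC gRNA alone gave 7.43 ± 0.32% against 7.22 ± 0.41% (SD, n = 4; exact permutation p = 0.167, adjusted p = 0.222).

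ADAR RNA itself held 25 of the editing sites of study 1, all in intron 5 within 301 bases, and ADARB1 held none. In study 2 no site of its table lay in either gene. No ADAR site had 10 reads in all libraries, so the planned test could not be computed, and the pooled reads without a minimum are given as values. CTRL cells had 1 edited of 849 reads on day 3, 2 of 1087 on day 4, and 1 of 773 on day 5. In hnRNPC-targeted cells the numbers were 16 of 1309 (1.22%, 95% Wilson interval 0.754 to 1.98%) on day 3, 18 of 1308 (1.38%, 0.872 to 2.16%) on day 4, and 4 of 1722 (0.232%, 0.0904 to 0.596%) on day 5. The libraries were uneven, with 0 to 11 edited reads on day 3 and 3 to 10 on day 4. In ADAR+hnRNPC cells of day 5 the sites were covered by 6351 reads, 7 of them edited (0.11%, 0.0534 to 0.227%), and after IFN-alpha by 2875 reads, 10 of them edited (0.348%, 0.189 to 0.639%). A read can cover several sites, and the intervals cover counting error only. These sites were admitted by their editing in samples with wild-type ADAR, the hnRNPC libraries among them.

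Of the 6 other deaminase genes related to ADAR, the tRNA deaminases ADAT1, ADAT2, and ADAT3 were expressed, and ADARB2, ADAD1, and ADAD2 stayed under 0.31 CPM in every library. In ADAR+hnRNPC cells of day 5 ADAT1 rose by 0.31 and ADAT3 by 0.69, and ADAT2 fell by 1.04. In hnRNPC-targeted cells of day 5 the same 3 genes changed by 0.27, 1.58, and -1.36. After IFN-alpha ADAT3 alone passed (-0.81, adjusted p = 0.0216, edgeR), with ADAT1 at 0.07 and ADAT2 at 0.12. None of the 3 was called higher there, whereas ADAR was.

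Of 18 genes for proteins that bind ADAR or inosine-containing RNA, 4 rose and 11 fell in ADAR+hnRNPC cells of day 5 (median log2 fold change -0.23, against -0.04 over all genes), where 34.5% of all genes were called higher and 39% lower. ILF2, a subunit of a double-stranded RNA-binding complex, fell by 1.01, the splicing factor SRSF9 fell by 0.78, and ELAVL1, which binds AU-rich elements, fell by 0.75. After IFN-alpha 4 of the 18 rose and 1 fell (median 0.06), with 11.1% of all genes called higher and 7.19% lower. In total RNA of study 2, 7 fell and 0 rose in ADAR+hnRNPC cells (median -0.30, against -0.12 over all genes), with 22.3% of all genes called lower and 12.4% higher.

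Among sensors of unedited double-stranded RNA and their adaptor, 8 of 9 genes were tested, and 7 rose in ADAR+hnRNPC cells of day 5 (median 4.99) and 7 after IFN-alpha (median 2.96), with 0 falling in either. The shares of all genes called higher were 34.5% and 11.1%. OAS2, OAS3, and OAS1, which make the second messenger that activates RNase L, rose by 6.64, 6.61, and 6.33 in ADAR+hnRNPC cells and by 6.64, 5.83, and 5.73 after IFN-alpha. The exception was the adaptor MAVS (-0.14, adjusted p = 0.0578, and 0.03, adjusted p = 0.809, edgeR). All 5 factors that drive interferon-stimulated promoters rose in both comparisons, among them IRF7 (5.33 and 3.75) and IRF1 (3.02 and 0.55). On day 4, when ADAR in ADAR+hnRNPC cells had not passed, 7 of the 8 sensors (median 1.23) and 5 of the 5 factors (median 1.05) had risen, against 25.5% of all genes called higher. In study 2, where ADAR was not above CTRL in either compartment, 6 of the 8 sensors rose and 1 fell in ADAR+hnRNPC cells in each, against 12.4% of all genes called higher in total and 20.1% in cytosolic RNA.

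Across the 16 group means of study 1 the genes most like ADAR included LAP3 (Pearson r = 0.989), UBE2L6 (0.982), PARP14 (0.981), and CHMP5 (0.980). Most of the spread between these points comes from 2 groups. Over the 9 group means of study 2 these 4 genes had r from -0.64 to -0.30 with ADAR. ADARB1 was most like CABLES1 (0.9498; 0.916 over the groups of study 2), TNN (0.949; -0.17), TNFRSF10B (0.947; -0.085), KANSL3 (0.930; 0.671), and KIF17 (0.930; 0.401). ADAR and ADARB1 had r = 0.58 with each other in study 1 and -0.27 in study 2.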

How the data were processed

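The authors sequenced stranded, ribosomal RNA-depleted total RNA. Per the labels and the study's methods, reads were aligned to GRCh37 with STAR 2.5.4a, and uniquely mapping reads were counted with featureCounts on GENCODE genes and on introns of principal transcripts. The deposited values used here are raw counts per gene, counts per intron (study 1), and, for each editing site, counts of edited and of all reads. The strand setting of the counting is not given in the sources used here. ADAR overlaps the antisense gene AL606500.1 and ADARB1 overlaps SSR4P1 and ENSG00000267857. How reads over these overlaps were assigned is therefore not known here.

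From these counts, edgeR 4.0.16 (R 4.3.3; TMM, quasi-likelihood test, 1 coefficient per group, all libraries of a study) was run on all genes with an average log2 CPM of at least 0.5 and on all introns with at least 1, the latter with gene totals as library size. Interactions used the 12 libraries of a day, and those of study 2 the libraries of a compartment. A feature passed at a Benjamini-Hochberg adjusted p of at most 0.05. Editing and intron-to-gene ratios were compared by exact two-sided permutation within day or compartment. That test takes libraries of different days or compartments as independent, although they may come from the same nucleofection experiments. Intervals of read shares are 95% Wilson intervals.

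The members and gene lists were chosen with earlier results of these data known. Named are ADAR and ADARB1, their introns past the filter, the deaminase family, the 3 genes of each other list with the largest change in ADAR+hnRNPC cells of day 5, HNRNPC, and the 5 genes most correlated with each member, less items that are not reported here; MAVS, the 1 tested sensor without a call, was named after its values were seen. Promoter sequences other than at the GRCh37 starts came from RefSeq. On simulated counts with 200 genes changed by a fold of 2, the test recovered 100% in study 1 (13187 genes, ADAR+hnRNPC against CTRL, day 5), 99% in study 2 (13637 genes, ADAR against CTRL, total RNA), and 100% of introns (21798, day 5), with 20, 8, and 9 false calls. The simulation gave all features the same dispersion and held no smaller changes, so it does not cover the small changes reported here. In the day 5 data 34.5% of genes were called higher and 39% lower, far more than were changed in the simulation. DESeq2 1.42.0 and limma 3.58.1 (voom) served as alternatives. The interactions and the comparison of ADAR+hnRNPC with ADAR cells in study 2, the contrasts between day 5 and day 3, and the ratio of downstream to upstream introns were added after the data were seen.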

Additional observations from a re-analysis of the deposited data

Results flagged for a closer look

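The effect of a gRNA pair on ADAR and ADARB1 differed between contexts in 5 tests. The ADAR by hnRNPC interaction on day 5 was 1.73 for ADAR (adjusted p = 4.49e-08, edgeR) and 0.41 for ADARB1 (adjusted p = 0.0229, edgeR), so the change in doubly targeted cells differed from the sum of the single changes. The difference from CTRL changed between day 3 and day 5 by 2.00 for ADAR in ADAR+hnRNPC cells (adjusted p = 2.54e-17), by 1.05 for ADARB1 in ADAR+hnRNPC cells (adjusted p = 1.97e-06), and by 0.76 for ADARB1 in hnRNPC-targeted cells (adjusted p = 0.000351, edgeR). In the last case the sign turned, from -0.46 on day 3 to 0.30 on day 5.

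In data that entered no test, the 25 editing sites in ADAR intron 5 had 1.38% edited reads in hnRNPC-targeted cells of day 4 (18 of 1308 reads, 3 to 10 edited reads per library), against 2 of 1087 reads in CTRL and 0 of 616 in GFP-targeted cells of that day (a count of 0 allows up to 0.487%). The level in hnRNPC-targeted cells was 1.22% on day 3 and 0.232% on day 5 (4 of 1722 reads). The sites were admitted for their editing in samples with wild-type ADAR, these libraries among them, and may have entered through the group that is high. A read can also cover several of the sites. The difference is therefore given as a description only and was not tested. Groups of 2 or 3 libraries were not searched for outlying samples.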

How the results depend on the processing

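Of 128 results, 92 kept their side of the threshold under every alternative run, leaving out single libraries included, and 0 called values changed direction. Among the calls that held throughout are ADAR and ADARB1 in ADAR+hnRNPC against CTRL cells of day 5, ADAR after IFN-alpha, the ADAR interaction of day 5, and ADAR in ADAR-targeted cytosol of study 2. With DESeq2, ADAR passed in ADAR+hnRNPC cells against CTRL on day 4 (0.21), against hnRNPC cells on day 3 (-0.21), on day 5 against IFN-alpha (0.18), against ADAR cells in cytosol (0.52), and in the interactions of day 4 (0.30) and of study 2 total RNA (0.80). ADARB1 passed against hnRNPC cells on day 4 (0.31, and 0.31 with limma-voom), and ADAR lost its calls between cytosolic and total (0.14) and cytosolic and digitonin-insoluble RNA (0.16; 0.34 with DESeq2's size factors in edgeR). Without TMM these differences were 0.29, -0.21, and 0.29 for the first 3, 0.37 for the day 4 interaction, 0.22 for ADAR against hnRNPC cells on day 4 (passed), 0.31 and 0.38 for ADARB1 of ADAR+hnRNPC cells on day 4 against ADAR and hnRNPC cells (passed), and 0.12 and 0.27 for the compartments (lost). With no filter on low counts, ADARB1 calls were lost in ADAR+hnRNPC cells of day 4 (0.31), hnRNPC cells of day 5 (0.30), and the day 5 interaction (0.41), and the ADAR interaction of study 2 total RNA passed (0.68). With only the groups compared, ADAR passed against hnRNPC cells on day 3 (-0.17) and against ADAR cells in cytosol (0.50), ADARB1 passed against ADAR cells in total RNA (0.38), and calls were lost for ADARB1 against CTRL in total RNA (0.59) and ADAR between cytosolic and digitonin-insoluble RNA (0.36). With GFP cells as control ADARB1 of hnRNPC cells lost its calls (-0.30 on day 3, 0.27 on day 5).

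The replicate numbers were not taken as pairs, because the labels do not say that a number marks a shared experiment. Same-numbered libraries did correlate above 0.1 in 31 of 39 pairs of study 1 (-0.17 to 0.75), so blocked results are given as well. In study 2, with 2 libraries per group, both numbers of a group give the same correlation (-0.34 to 0.44 over the groups). With a replicate block ADAR passed in ADAR+hnRNPC cells of day 4 (0.17) and in the day 4 interaction (0.29), ADARB1 passed against hnRNPC cells on day 4 (0.30), the introns called were 3 for ADAR in ADAR+hnRNPC cells of day 4 and 1 for ADARB1 in hnRNPC cells of day 5, and the intron-to-gene ratio passed for ADAR in hnRNPC (0.23) and ADAR+hnRNPC cells (0.27) but not for ADARB1 in hnRNPC cells (0.30). The latter was also lost over introns past the filter (0.23). Scaled to intron totals, 14 of 16 tested ADAR introns passed after IFN-alpha and 1, 4, and 16 in ADAR+hnRNPC cells of days 3, 4, and 5. With an average log2 CPM of at least 0, 11 of 12 tested ADAR introns passed after IFN-alpha and 11 on day 5, and limma-voom called 1 ADARB1 intron in hnRNPC cells of day 5. The shares of all introns called under these settings are not given here.

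Leaving out 1 library changed calls for ADAR+hnRNPC against CTRL (ADAR, day 3, -0.28 to -0.23, day 4, 0.13 to 0.23; ADARB1, day 4, 0.23 to 0.37), ADARB1 in hnRNPC cells of day 5 (0.21 to 0.35), the ADARB1 interaction of day 5 (0.37 to 0.57), ADARB1 of ADAR+hnRNPC against hnRNPC cells (0.19 to 0.42 on day 3, 0.19 to 0.40 on day 4), and ADAR of ADAR+hnRNPC cells of day 5 against IFN-alpha (-0.0089 to 0.19). In study 2, where the lone sample left is assumed to vary like the other groups, calls changed for ADAR in ADAR cells (total, -0.95 to -0.62), ADAR+hnRNPC cells (cytosol, -0.79 to -0.45), ADAR+hnRNPC against ADAR cells (total, 0.46 to 0.84), ADARB1 in ADAR+hnRNPC cells (total, 0.31 to 0.79), the total RNA interactions (ADAR 0.51 to 0.87, ADARB1 0.33 to 0.84), cytosolic against total (ADAR 0.20 to 0.30, ADARB1 0.11 to 0.23), and cytosolic against digitonin-insoluble RNA (ADAR 0.23 to 0.57, ADARB1 0.077 to 0.57). They also changed for editing in hnRNPC cells (0.316 to 0.383), the ADARB1 intron ratio (0.20 to 0.38), and introns called (ADAR in ADAR+hnRNPC cells of day 4, 1 to 3; ADARB1, 0 to 1 in hnRNPC cells of day 5 and in ADAR+hnRNPC cells of days 4 and 5). The causes were not tested, apart from the fewer samples. ADARB1 rests on 427 to 1208 reads per library in study 1, which limits what its small changes can show.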
